A study of Mus musculus with 6 samples.

Results

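The T cell receptor complex and its proximal signalling machinery are described here as 40 genes chosen by name, among them the chains of the receptor, its coreceptor, and the kinases, adaptors, effector enzymes and negative regulators that act just inside the membrane. Of the 40 genes, 39 matched a transcript cluster (the probe set that reports 1 transcript unit) of their own and shared with no other named gene, out of 30024 genes that did so in the whole series. Lck, the kinase that starts the cascade, had no cluster under its name in the annotation used and was not analysed here.

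The T cell receptor has no enzyme activity of its own. When it binds peptide on an MHC molecule, SRC-family kinases phosphorylate tyrosines in the tails of the CD3 and zeta chains, ZAP-70 docks there and phosphorylates the adaptors LAT and SLP-76, and these gather the enzymes that raise calcium and turn on RAS, NF-kappaB and NFAT. Phosphatases, ubiquitin ligases and diacylglycerol kinases restrain the cascade, and regulatory T cells (Treg cells) depend on its signal for their development and function.

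RNA came from CD4+ CD25+ spleen cells, labelled as Treg cells, which were isolated by MACS (magnetic separation) from untreated male mice on a C57BL/6 background, with 3 arrays per genotype. The Keap1_KO group (Keap1 -/- in the labels, replicates B, C and D) carried VAVcre with Keap1-flox, a Cre recombinase driven by a Vav promoter that acts throughout blood-forming cells, so T cells were not the only cells without Keap1. The WT group (Keap1 +/+, replicates A, D and F) is labelled as respective wild type, and the labels do not say whether it carried Cre. Age is written as 10 to 12 months in one label field and as 6 to 10 weeks in another. The KEAP1 protein directs NRF2, a factor of the oxidative stress response, to degradation, and the comparison asks which transcripts differ when it is lost. Each value is a deposited log2 level, a difference is Keap1_KO minus WT on that scale, and ± gives the SD over 3 arrays. The arrays are called independent triplicates, without a statement that they came from different mice, so p-values cover only the spread among the arrays, which may be technical. In such bulk RNA, fewer cells of a type and less RNA per cell cannot be told apart.

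Keap1 itself was dim and lay lower on each Keap1_KO array (4.87, 4.89 and 4.70 on B, C and D) than on each WT array (5.30, 5.41 and 5.77 on A, D and F). Nqo1, a standard readout of NRF2 activity, read 4.68, 4.69 and 5.03 in WT and 8.50, 7.55 and 9.14 in Keap1_KO. Il2ra, the gene of CD25, was bright at 13.93 ± 0.22 in WT and 13.88 ± 0.30 in Keap1_KO. Of the CD8 chains, which this cell type should lack, Cd8a lay between 5.46 and 6.87, above the array medians of 5.16 to 5.43, and Cd8b1 between 7.23 and 10.38. The cluster that Foxp3 shares with other transcripts read 10.76, 10.76 and 11.15 in WT and 11.11, 12.41 and 12.08 in Keap1_KO. Keap1_KO B stood nearer to WT than C and D did: over all genes tested, 65.9% of its values lay inside the range of the 3 WT arrays, against 34.9% for C and 30.5% for D.

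No member passed limma with Benjamini-Hochberg adjustment over all 16825 genes at 0.05, and no gene did (0% of genes tested). The lowest adjusted p among members was 0.476. At an unadjusted limma p under 0.05, 8 members were higher in Keap1_KO (20.5% of members, against 8.38% of all genes) and 1 was lower (2.56%, against 1.92%). Every Keap1_KO array lay above every WT array for 7 members (17.9%, against 9.11% of all genes) and below for 2 (5.13%, against 4.96%). The members' median difference was 0.21, with 25 of 39 higher (64.1%), beside 0.061 and 56.5% over all genes and 0.082 and 59.6% over protein-coding genes. A difference over 1 was found for 4 of 39 members (Lat, Ptpn6, Cd4 and Csk; 6.81% of all genes) and one under -1 for none (1.53% of all genes). Higher and lower refer to group means unless a test is named.

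All 4 chains of the receptor complex had higher means in Keap1_KO, with the largest differences in Cd3d and Cd3e, but arrays of the genotypes overlapped for each chain. Cd3e encodes the epsilon chain, which pairs with delta and with gamma to form the CD3 dimers. Cd3e read 14.30, 15.27 and 14.80 on the WT arrays (A, D, F) and 15.04, 16.01 and 16.19 on the Keap1_KO arrays (B, C, D), a difference of 0.96 (SE 0.38, 1.94-fold, limma adjusted p = 0.476, exact permutation p = 0.2). Keap1_KO C and D stood above all WT arrays, and Keap1_KO B fell between WT F and WT D.

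Cd3d, the delta chain, read 16.27, 17.19 and 15.96 in WT and 16.43, 17.88 and 17.91 in Keap1_KO (difference 0.94, SE 0.50). The same 2 Keap1_KO arrays were high, and B again lay inside the WT range. Cd3g, the gamma chain that sits next to Cd3d in the genome, differed less, at 14.95 ± 0.24 and 15.23 ± 0.35 (difference 0.28, 95% interval -0.30 to 0.85). Cd247, which encodes the zeta chain that carries most of the receptor's signalling tyrosines, read 8.70 ± 0.14 and 8.88 ± 0.20 (difference 0.17, interval -0.26 to 0.60). For these 2 chains Keap1_KO D was the highest array and WT F the lowest. The chains were not tested against each other, and Cd3d exceeded 16, the ceiling of a 16-bit scanner on the log2 scale, on every array but WT F. Cd3e, Lat, Ptprc and Cbl did so on some arrays too, and the folds of these 5 genes stand on an unstated rescaling.

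The 4 surface molecules that act with the receptor were all higher in Keap1_KO and formed the group with the highest median, 0.92. Cd4, the coreceptor that binds MHC class II, read 11.87, 12.30 and 11.16 on the WT arrays (A, D, F) and 12.09, 13.05 and 13.29 on the Keap1_KO arrays (B, C, D) (difference 1.04, SE 0.42, 2.05-fold). Keap1_KO C and D were the highest arrays and B lay below WT D, so the groups overlapped (limma adjusted p = 0.476, exact permutation p = 0.2). Cd4 was also a gene of the marker by which the cells were isolated, so its level describes cells already selected for the protein.

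Cd2, an adhesion and costimulatory receptor, read 13.22, 13.49 and 13.45 in WT and 13.67, 14.54 and 14.43 in Keap1_KO. Each Keap1_KO array lay above each WT array, by 0.181 at the closest pair, and the difference was 0.83 (95% interval 0.19 to 1.47, exact permutation p = 0.1, the smallest that 3 arrays against 3 allow, limma adjusted p = 0.476). Cd6, a scavenger receptor-like molecule that binds ALCAM, read 9.68, 9.80 and 9.62 in WT and 10.13, 11.19 and 10.31 in Keap1_KO (difference 0.85, interval 0.13 to 1.56). It also separated the genotypes, and here Keap1_KO C stood alone at the top. Its relative Cd5, an inhibitory receptor whose level follows the strength of receptor signals during development, read 13.86, 13.89 and 13.41 against 13.85, 15.24 and 15.05 (difference 0.99, SE 0.39). For Cd5, Keap1_KO B was indistinguishable from WT A and D while C and D were higher than all WT arrays.

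**Figure D1:**
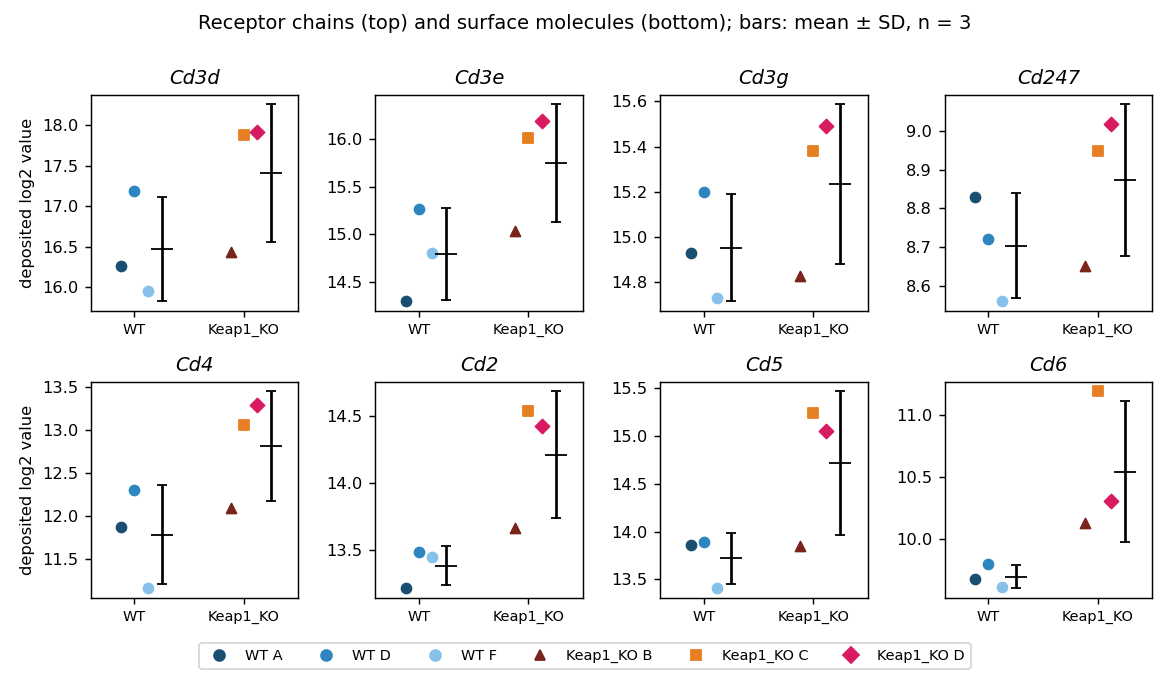
Deposited log2 values of the 4 receptor chains (top row) and the 4 surface molecules (bottom row) on each array, with mean ± SD of 3 arrays beside the points; each panel has its own vertical range. Keap1_KO C and D lie above all WT arrays in all 8 panels, and Keap1_KO B does so only for Cd2 and Cd6.

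The analysis plan set a median for each group singly. The receptor and surface groups, with the highest group medians (0.61 and 0.92), were joined outside that plan. Their contrast with the other members therefore follows the values. Across these 8 receptor and surface genes, the median difference was 0.89 and 8 of 8 were higher, and each of the 8 kept a positive difference under all 14 alternative settings tried. The sizes did not hold: with the mean level of neutrophil markers as a covariate, Cd3g had 0.017, Cd247 0.049, Cd3d 0.32 and Cd3e 0.46. That covariate was itself highest on Keap1_KO C and D. Keap1_KO C and D each lay above every WT array for 8 of 8 genes (38.2% and 42.3% of all genes), and Keap1_KO B for 2 of 8 (18.9% of all genes). The 31 members of the other groups had a median of 0.039, with 17 higher and 14 lower, beside 0.061 for all genes. All genes in the brightness ranges that hold most members had higher medians, 0.18 and 0.19. Among these 31 is Ptprc, grouped with the phosphatases, whose product CD45 also spans the membrane. With Ptprc counted among the surface genes, 8 of 9 were higher and the median was 0.85, a grouping chosen after its value was seen. The surface genes and the other groups were not tested against each other.

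Leaving out Keap1_KO B or weighting the arrays by their spread turned some of these differences into calls. Keap1_KO B was the Keap1_KO array nearest to WT (65.9% of genes inside the WT range), so less weight on it tends to widen differences. Its Nqo1 value (8.50) lay between those of C (7.55) and D (9.14). Leaving out any other single array called no gene. Without Keap1_KO B, 3 of 39 members passed the limma adjusted threshold in the higher direction (3.31% of genes did) and none in the lower (0.163%): Lat (1.46, adjusted p = 0.0386), Cd5 (1.42, 0.0438) and Cd2 (1.10, 0.0467). With limma array weights, which gave Keap1_KO B the lowest weight (0.352) and WT A the highest (3.38), 7 members passed as higher (9.58% of genes did) and 1 as lower (1.59%). Those higher were Cd2, Cd3e, Cd4, Cd5, Lat, Csk and Vav1, with adjusted p from 0.0408 to 0.0462, and the one lower was Grap2 (-0.71, adjusted p = 0.0421). Without Keap1_KO B, both remaining Keap1_KO arrays exceeded all WT arrays for 17 members (31.6% of genes did) and lay below all for 7 (18% of genes).

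**Figure D2:**
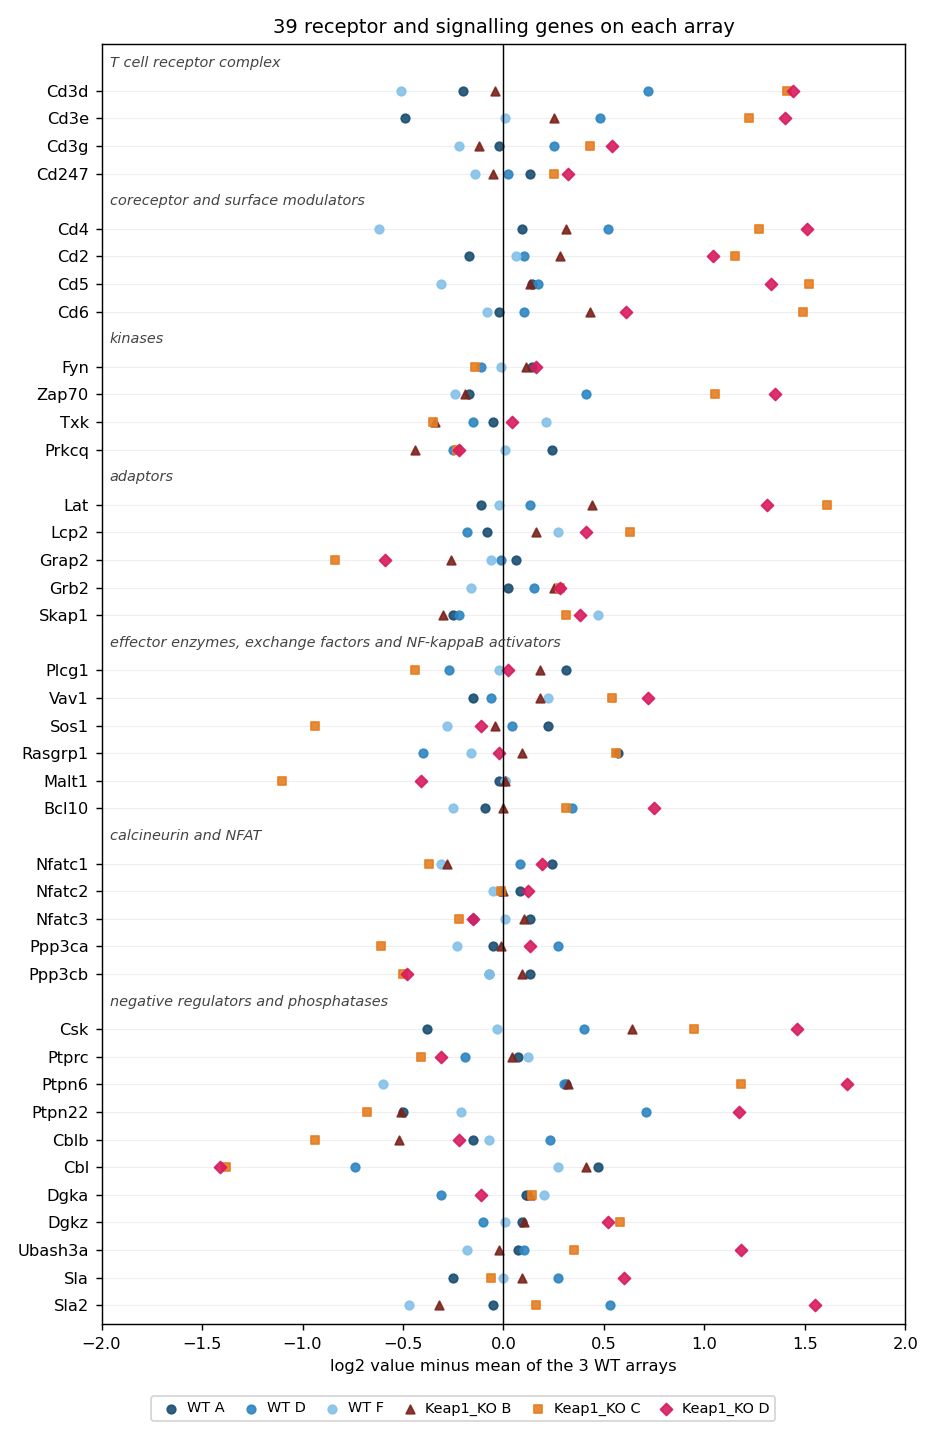
Log2 value of each of the 39 genes on each array minus the mean of the 3 WT arrays, ordered by role; circles are WT arrays and other symbols are Keap1_KO arrays. The receptor and surface genes lie to the right on Keap1_KO C and D, for example Cd5 at 15.24 on C against a WT mean of 13.72, whereas genes of the other groups scatter to both sides.

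The 4 kinases with values showed no common direction (median -0.089, or 0.023 with each array centred on its median, 2 higher and 2 lower). Zap70, the kinase that docks on the phosphorylated receptor, read 7.36, 7.94 and 7.29 on the WT arrays (A, D, F) and 7.34, 8.58 and 8.88 on the Keap1_KO arrays (B, C, D). As for the receptor chains, C and D were high and B was inside the WT range. The difference was 0.74, with a 95% interval from -0.30 to 1.77 (exact permutation p = 0.3). Fyn, the SRC-family kinase that can also phosphorylate the receptor, was nearly flat at 11.68 ± 0.13 and 11.72 ± 0.16 (difference 0.039, interval -0.37 to 0.44). Txk, a TEC-family kinase, read 9.16, 9.06 and 9.42 in WT and 8.87, 8.86 and 9.25 in Keap1_KO, a difference of -0.22. Prkcq, protein kinase C theta, which links diacylglycerol to NF-kappaB, read 13.43, 12.94 and 13.20 in WT and 12.75, 12.96 and 12.97 in Keap1_KO (difference -0.30, interval -0.75 to 0.16). Here Keap1_KO B was the lowest array and the other Keap1_KO arrays matched WT D.

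Among 5 adaptors, Lat (higher), Grb2 (higher) and Grap2 (lower) separated the genotypes. Lat encodes the membrane scaffold that recruits phospholipase C and GRB2 after phosphorylation by ZAP-70. It read 15.40, 15.64 and 15.49 on the WT arrays (A, D, F) and 15.95, 17.12 and 16.82 on the Keap1_KO arrays (B, C, D). The WT arrays lay close together (SD 0.12), all Keap1_KO arrays were higher, and the difference of 1.12 (SE 0.31, 2.17-fold) was the largest of any member, although 872 genes (5.18%) had a higher difference (limma adjusted p = 0.476, exact permutation p = 0.1).

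Grap2 encodes GADS, the adaptor that bridges LAT to SLP-76. It read 11.99, 11.92 and 11.87 in WT and 11.67, 11.09 and 11.34 in Keap1_KO, so all Keap1_KO arrays were lower (difference -0.56, 95% interval -1.03 to -0.086, limma adjusted p = 0.476, exact permutation p = 0.1). Lcp2, the gene of SLP-76 itself, leaned the other way at 13.45 ± 0.24 and 13.85 ± 0.24, with Keap1_KO B (13.61) below WT F (13.72). Grb2, the adaptor that brings SOS to LAT, read 10.11, 10.24 and 9.93 in WT and 10.34, 10.37 and 10.37 in Keap1_KO. That difference was small (0.27), yet the groups did not overlap, by 0.0979 at the closest pair. Skap1, which couples the receptor to integrin adhesion, read 10.37 ± 0.41 and 10.50 ± 0.37 and overlapped fully (exact permutation p = 1).

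Promoter sequences were set beside these values, since NRF2 acts through DNA and the receptor chains and Lat leaned the same way. RefSeq promoters (GRCm38.p6, from 250 bases before to 50 after a start) were at hand for 32 of the 40 genes, and 4 short motifs were searched on both strands. The stretches below show Lat, the member with the largest difference, Cd3e, one of the 2 receptor chains with the largest, and Zap70 and Ptprc, which hold the core of the antioxidant response element that NRF2 binds. Each is written 5′ to 3′ on the strand of its gene, with motif matches in capitals. They lie at chr7:126369519-126369818 (minus strand) for Lat, chr9:45009562-45009861 (minus) for Cd3e, chr1:36778734-36779033 (plus, 1 of 3 starts listed) for Zap70 and chr1:138175077-138175376 (minus, 1 of 2 starts listed) for Ptprc.
Lat: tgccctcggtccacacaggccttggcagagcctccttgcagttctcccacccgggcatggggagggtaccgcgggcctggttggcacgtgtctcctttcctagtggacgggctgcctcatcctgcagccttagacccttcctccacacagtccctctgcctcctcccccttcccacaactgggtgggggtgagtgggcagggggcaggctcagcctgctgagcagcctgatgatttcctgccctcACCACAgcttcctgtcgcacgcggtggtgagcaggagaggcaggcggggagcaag
Cd3e: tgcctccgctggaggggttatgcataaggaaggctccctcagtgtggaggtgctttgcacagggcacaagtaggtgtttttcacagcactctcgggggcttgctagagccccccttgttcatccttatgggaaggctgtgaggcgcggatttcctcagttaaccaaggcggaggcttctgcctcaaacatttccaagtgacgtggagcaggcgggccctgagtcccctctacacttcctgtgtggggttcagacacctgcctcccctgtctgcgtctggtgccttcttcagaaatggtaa
Zap70: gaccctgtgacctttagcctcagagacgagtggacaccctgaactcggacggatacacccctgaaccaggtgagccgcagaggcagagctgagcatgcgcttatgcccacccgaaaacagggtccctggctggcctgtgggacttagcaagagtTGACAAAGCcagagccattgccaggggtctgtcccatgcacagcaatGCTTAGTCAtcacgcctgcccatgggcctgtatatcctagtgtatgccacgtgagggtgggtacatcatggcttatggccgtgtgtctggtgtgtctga
Ptprc: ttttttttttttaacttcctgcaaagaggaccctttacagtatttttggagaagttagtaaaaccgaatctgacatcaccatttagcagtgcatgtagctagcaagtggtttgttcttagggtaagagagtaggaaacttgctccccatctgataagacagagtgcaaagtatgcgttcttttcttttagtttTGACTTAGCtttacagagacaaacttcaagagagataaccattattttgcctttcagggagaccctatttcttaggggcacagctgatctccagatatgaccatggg
The capitals in Lat are a RUNX-type match (TGTGGT on the other strand) that starts 5 bases before the start site. The capitals in Zap70 are matches to TGACNNNGC, the antioxidant response element core, which start 96 and 49 bases before the start, the second on the other strand. The capitals in Ptprc are 1 such match, starting 57 bases before the start. The other listed starts of Zap70 and Ptprc held no TGACNNNGC match, and the Zap70 stretch shown lies downstream of its other listed starts. Cd3e held none of the 4 motifs.

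A gene was counted once if any of its listed promoters held the motif. TGACNNNGC was found in 3 of 32 members (9.38%: Zap70, Ptprc and Dgka), against 14% of all 27025 genes with a promoter. Of these 3, Zap70 had a difference of 0.74, Dgka of 0.055 and Ptprc of -0.23, and none separated the genotypes. The ETS-type motif CCGGAA was found in 12.5% of members and 16.7% of all genes, the RUNX-type TGTGGT in 21.9% and 18.9%, and the NFAT-type GGAAAA in 25% and 26.1%. CCGGAA and GGAAAA can overlap by their shared GGAA. Members with a RUNX-type match lay on both sides (for example Lat at 1.12 and Sos1 at -0.36). So did members with an NFAT-type match (for example Csk at 1.02 and Grap2 at -0.56). With so few members these shares were not tested against those of all genes, and a match describes letters only.

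The 6 effector enzymes, exchange factors and NF-kappaB activators split evenly, with 3 higher and 3 lower (median 0.06), and arrays overlapped for all 6. Vav1, a guanine nucleotide exchange factor that acts on the cytoskeleton, had the largest positive difference, with 9.48, 9.57 and 9.85 on the WT arrays (A, D, F) and 9.81, 10.17 and 10.35 on the Keap1_KO arrays (B, C, D). Only Keap1_KO B fell within the WT range, and the difference was 0.48 (95% interval -0.024 to 0.98, exact permutation p = 0.2). Malt1, a protease on the way to NF-kappaB, was almost constant in WT (11.23, 11.26 and 11.26) and read 11.26, 10.15 and 10.84 in Keap1_KO. Its difference of -0.50 came from C and D, with B level with WT. Its partner Bcl10 leaned higher, at 6.89 ± 0.30 and 7.25 ± 0.38.

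Plcg1, the phospholipase that makes the calcium-releasing messenger and diacylglycerol, read 9.78 ± 0.29 in WT and 9.70 ± 0.32 in Keap1_KO, and its difference of -0.087 became 0.025 with centred arrays. Both RAS activators overlapped between genotypes. Rasgrp1, which diacylglycerol recruits, read 12.12 ± 0.51 and 12.33 ± 0.31, and Sos1, which GRB2 carries, read 10.14 ± 0.25 and 9.78 ± 0.50, with Keap1_KO C (9.20) the lowest array.

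Calcineurin, the calcium-activated phosphatase, and the NFAT factors it sends to the nucleus showed the smallest differences of any group. Differences ran from -0.29 to 0.032 with a median of -0.16, 4 of 5 members were lower, and arrays overlapped for each. Nfatc2 was the steadiest member of all 39, with values from 7.80 to 7.97 and a difference of 0.032 (95% interval -0.32 to 0.39). Nfatc1 read 10.61, 10.45 and 10.06 in WT and 10.09, 10.00 and 10.56 in Keap1_KO, with highs and lows in both genotypes. Nfatc3 read 12.14 ± 0.14 and 12.05 ± 0.17, and its difference of -0.09 became 0.022 with centred arrays. The catalytic subunit gene Ppp3cb read 10.93, 10.73 and 10.73 in WT and 10.89, 10.30 and 10.32 in Keap1_KO (difference -0.29, interval -0.81 to 0.23). Keap1_KO C and D were its lowest arrays, while Ppp3ca, the other catalytic subunit among the members, was low only on C (9.34) and read 9.95 ± 0.25 and 9.79 ± 0.39.

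Negative regulators and phosphatases, 11 genes, ran from -0.79 to 1.07, with 7 higher and 4 lower and a median of 0.21. Csk, the kinase that switches SRC-family kinases off, read 7.56, 8.34 and 7.91 on the WT arrays (A, D, F) and 8.58, 8.89 and 9.40 on the Keap1_KO arrays (B, C, D). All Keap1_KO arrays were above all WT arrays, and the difference was 1.02 (SE 0.30, 2.03-fold, limma adjusted p = 0.476, exact permutation p = 0.1). Unlike the receptor genes, Csk was high on Keap1_KO B as well.

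Ptpn6 encodes SHP-1, a tyrosine phosphatase of inhibitory receptors, and is abundant in many blood cell types. It read 9.04, 9.03 and 8.13 in WT and 9.05, 9.91 and 10.44 in Keap1_KO (difference 1.07, 95% interval 0.045 to 2.09). Keap1_KO B exceeded WT A by only 0.0112, so the separation of the groups rested on a gap far below the spread. Dgkz, a diacylglycerol kinase that ends RAS activation, read 7.65 ± 0.09 and 8.05 ± 0.26, also with a narrow gap, between WT A (7.74) and Keap1_KO B (7.75). Its relative Dgka read 12.39 ± 0.27 and 12.44 ± 0.14.

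The ubiquitin ligase genes Cblb and Cbl lay lower in Keap1_KO. Cblb, which sets the need for costimulation, read 12.89, 13.27 and 12.97 in WT and 12.52, 12.10 and 12.82 in Keap1_KO, without overlap (difference -0.56, 95% interval -1.13 to 0.0038, exact permutation p = 0.1, limma adjusted p = 0.476). Cbl had 2 clusters, and the brighter read 16.55, 15.34 and 16.35 in WT and 16.49, 14.70 and 14.67 in Keap1_KO, a difference of -0.79 within a wide spread. The dimmer cluster of Cbl had the same order of groups, with a difference of -0.33. In both clusters Keap1_KO B lay with WT A and F, and WT D lay between them and Keap1_KO C and D.

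Of the remaining restraining genes, none separated the genotypes. Ptprc, the gene of CD45, which both removes the inhibitory phosphate of SRC-family kinases and can dephosphorylate the receptor, was high and steady at 16.03 ± 0.17 and 15.80 ± 0.23. Ptpn22, a phosphatase of SRC-family kinases, varied widely within both groups, from 12.40 to 13.61 in WT and from 12.22 to 14.07 in Keap1_KO. WT D and Keap1_KO D were its high arrays, and its difference was -0.0082. Sla2 and Sla, adaptors that promote loss of the receptor from the surface, read 8.76 ± 0.50 and 9.22 ± 0.97, and 11.41 ± 0.26 and 11.62 ± 0.35. Ubash3a, a suppressor of receptor signalling, read 9.98, 10.01 and 9.73 in WT and 9.89, 10.26 and 11.09 in Keap1_KO. Keap1_KO D was the highest array for Sla2 (10.31), Sla (12.01), Ubash3a and Ptpn22 alike.

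**Figure D3:**
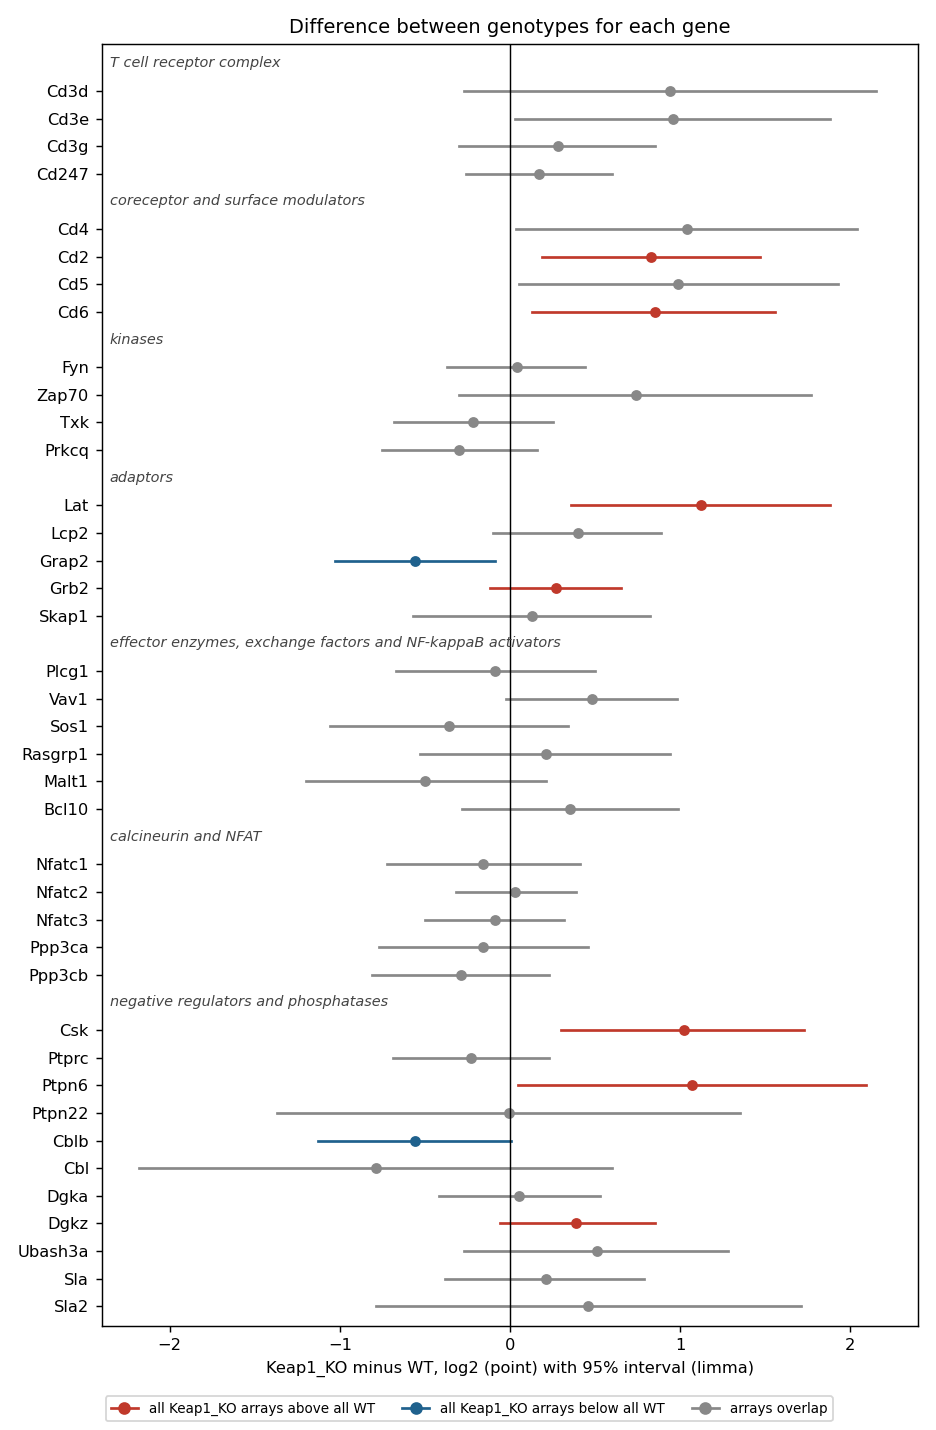
Difference Keap1_KO minus WT (log2, points) with the 95% interval from limma (bars) for each of the 39 genes, coloured by whether the arrays of the genotypes overlap. Separated genes are Cd2, Cd6, Lat, Grb2, Csk, Ptpn6 and Dgkz above 0 and Grap2 and Cblb below 0, and no gene passed adjustment over all genes.

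The arrays differed in which members they had high. Keap1_KO D lay above every WT array for 23 of the 39 members (42.3% of all genes) and Keap1_KO C for 17 (38.2% of all genes). Keap1_KO D lay inside the WT range for 9 members (30.5% of all genes) and C for 8 (34.9% of all genes). Keap1_KO B lay inside the WT range for 25 members (65.9% of all genes) and above it for 8 (18.9% of all genes), shares near those of all genes. Below every WT array lay 14 members on Keap1_KO C, 7 on D and 6 on B. For each array, the share of all genes below is the remainder of its 2 shares given here. The mean deviation of the 4 receptor chains from their own 6-array means was -0.44, 0.07 and -0.51 on the WT arrays (A, D, F) and -0.28, 0.53 and 0.63 on the Keap1_KO arrays (B, C, D). For the 4 surface molecules it was -0.45, -0.24 and -0.70 against -0.17, 0.90 and 0.66. The negative regulators followed another pattern, with -0.12, 0.01 and -0.18 against -0.07, -0.11 and 0.46, so that only Keap1_KO D stood out by its mean. On Keap1_KO C single genes of this group lay on both sides, for example Csk (8.89) above and Cblb (12.10) below every WT array.

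**Figure D4:**
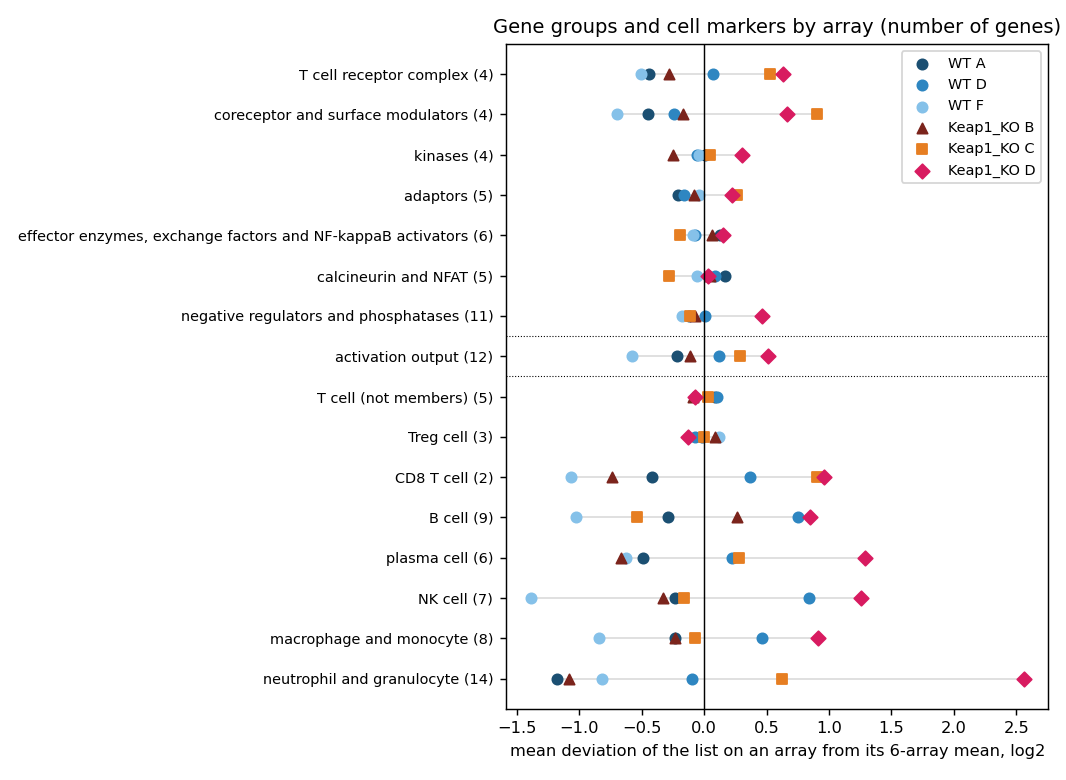
Mean deviation of each gene group on each array from its 6-array mean (log2), with the number of genes in parentheses; member groups are at the top, activation output in the middle and markers of T cells and other cells at the bottom. Keap1_KO D is highest for negative regulators (0.46) and for neutrophil markers (2.56), and Keap1_KO C and D are highest for receptor chains and CD8 markers.

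Markers of other cells were high on some of the same arrays, but not always on both Keap1_KO C and D. Of 14 measured neutrophil and granulocyte markers, 12 of the 13 tested had higher means in Keap1_KO. Their mean level lay between 7.36 and 8.43 on WT arrays and between 7.45 and 11.10 on Keap1_KO arrays, with Ngp at 7.51, 11.04 and 13.56 and Camp at 8.26, 12.07 and 15.23 on B, C and D. With the mean level of these markers as a covariate in limma, the members' median was 0.036 in place of 0.21. That of the receptor chains was 0.18 in place of 0.61 and that of the surface molecules 0.56 in place of 0.92. The covariate was itself highest on Keap1_KO C and D, so a fit on 6 arrays separates it poorly from genotype. No gene passed adjustment in that fit. The median of all genes is not set beside these, so the drop is not read as particular to the members. The 2 CD8 markers had deviations of -0.42, 0.37 and -1.07 on the WT arrays (A, D, F) and -0.74, 0.90 and 0.96 on the Keap1_KO arrays (B, C, D). Keap1_KO C, Keap1_KO D and WT D were thus highest for CD8 markers. The same arrays were highest for Cd3d, Cd3e, Cd3g and Cd4, while for Cd247 WT A (8.83) lay above WT D (8.72). The mean level of 9 B cell markers ranged from 6.13 to 7.92 in WT and from 6.62 to 8.01 in Keap1_KO, of 7 NK cell markers from 6.92 to 9.15 and from 7.98 to 9.57, of 6 plasma cell markers from 7.25 to 8.10 and from 7.21 to 9.16, and of 8 macrophage and monocyte markers, 2 of them below the array median everywhere, from 5.71 to 7.01 and from 6.33 to 7.47. For the B cell, NK cell, and macrophage and monocyte lists, Keap1_KO D was the highest array and WT D the next. Keap1_KO C (6.62, 8.15 and 6.48) lay below WT D (7.92, 9.15 and 7.01) in each of these lists. The part of other cells in the members' differences was not tested.

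T cell genes outside the member list did not follow the surface molecules as a group. The 5 measured T cell markers averaged from 12.09 to 12.27 on WT arrays and from 12.07 to 12.19 on Keap1_KO arrays. Their median difference was -0.35. The surface molecule genes Thy1 (0.65) and Cd28 (0.27) were higher, and Bcl11b (-0.35), Lef1 (-0.41) and Themis (-0.59) were lower. The 3 measured Treg markers averaged from 13.70 to 13.89 and from 13.64 to 13.85.

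The wider pathway was read through a list of 66 further genes, of which 49 were tested. None passed limma adjustment, 5 were higher and 4 lower at an unadjusted p under 0.05 (10.2% and 8.16%, against 8.38% and 1.92% of all genes). The groups were separated for 2 higher and 5 lower genes (4.08% and 10.2%, against 9.11% and 4.96% of all genes). No member of that list is counted among the 40. The median difference was 0.071, with 27 higher and 22 lower, close to all genes. One entry, Pdk1, names pyruvate dehydrogenase kinase in mouse and not the kinase of the PI3K pathway, and the median without it was 0.075.

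Regulatory and catalytic calcineurin subunits outside the member list were among the separated genes. Ppp3r1, the regulatory subunit, read 10.91, 10.89 and 10.57 in WT and 10.41, 9.94 and 10.29 in Keap1_KO (difference -0.58), and Ppp3cc, the remaining catalytic subunit, read 10.43, 10.63 and 10.78 against 10.28, 9.79 and 10.09 (difference -0.56). Both lay lower on every Keap1_KO array, and Ppp3cc was named after its values were seen. Within calcium signalling Stim1, the calcium sensor of the endoplasmic reticulum, had the highest difference (0.75), followed by Rcan1 (0.23), a calcineurin inhibitor, and Itpr2, a calcium release channel, the lowest (-0.60).

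Adaptors and GTPases gave the widest values of the wider list. Sh2d2a, the T cell adaptor TSAd, read 8.48 ± 0.46 in WT and 9.92 ± 0.95 in Keap1_KO (difference 1.43), with Keap1_KO B below WT D. Was, which links CDC42 to actin, differed by 0.81, whereas Tespa1 and Themis, both needed for receptor signals in thymocytes, differed by -0.65 and -0.59. Rac2, the blood-cell RAC GTPase, read 14.84, 14.80 and 14.29 against 15.26, 15.92 and 16.32 and was separated (difference 1.19), and Akt1 (0.52), a kinase downstream of PI3K, was too, whereas Pik3r1 (-0.56), the PI3K regulatory subunit, overlapped. In the MAP kinase branch, the kinase genes Map2k1 and Map2k2 differed by 0.96 and 0.64, Rasa1, a RAS inactivator, by -0.51, and Nras by -0.22. Of further negative regulators, the inhibitory adaptor genes Sit1 and Dok2 differed by 1.11 and 0.43, Pag1, which anchors CSK, by -0.36, and the ligase gene Itch by -0.46, the last without overlap. The costimulatory receptor gene Cd28 differed by 0.27 and Trat1, a receptor-associated adaptor, by 0.12, and in the NF-kappaB branch differences ran from -0.18 to 0.13.

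Transcripts that receptor signals induce had a median difference of 0.43 over 12 genes, 10 of them higher (83.3%, against 56.5% of all genes), and none passed limma adjustment. At an unadjusted limma p under 0.05, 3 of 12 were higher (25%, against 8.38%). Egr2, a zinc finger factor induced by NFAT, was the only one separated (8.33% of the list, against 9.11% of all genes), with 9.64, 9.81 and 9.39 in WT and 9.93, 10.65 and 10.58 in Keap1_KO (difference 0.77). Tnfrsf9, the gene of 4-1BB, differed by 1.22 and the orphan receptor gene Nr4a1 by 0.89, both with Keap1_KO B below WT D. Cd69, a surface marker of recent activation, read 12.53, 13.22 and 12.77 against 12.29, 12.66 and 13.29 and differed by -0.098, and Egr3 by -0.051.

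**Figure D5:**
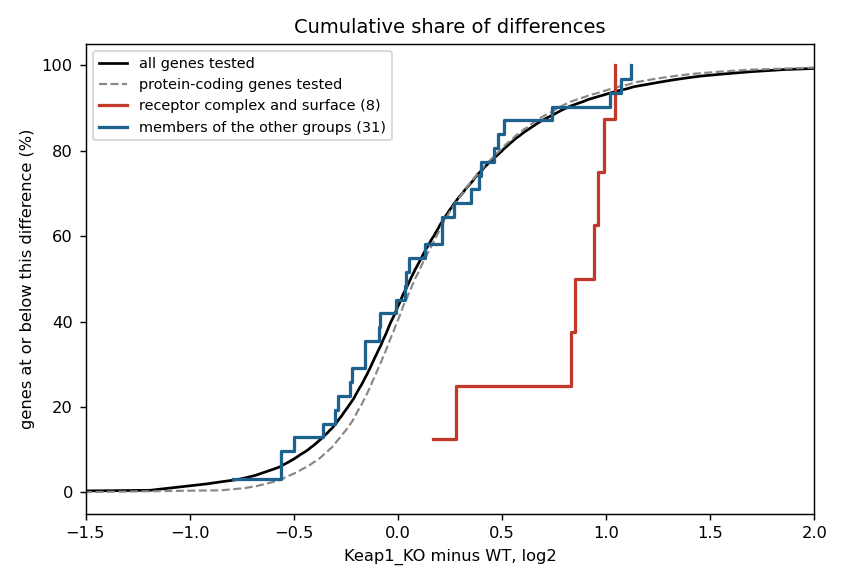
Cumulative share of genes (vertical, percent) at or below a given difference Keap1_KO minus WT (horizontal, log2) for all genes tested, protein-coding genes, the 8 receptor and surface genes and the 31 members of the other groups. The curve of the 31 follows that of all genes, and 6 of the 8 receptor and surface genes lie between 0.83 and 1.04. The split into 8 and 31 was made outside the planned groups.

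Most members were bright genes, and differences varied with brightness over all genes. Genes tested with means of 9.56 and above had a median difference of 0.19, and the 30 members among them had 0.09. Between means of 7.46 and 9.56, 8 members had a median of 0.43 against 0.18 for all genes there. The spread of the members was near that of all genes, since the median range over 6 arrays was 0.90 for members and 0.90 for all genes, and the median SD within a genotype was 0.33 and 0.32.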

How the data were processed

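Per the labels' protocols, 40 ng of total RNA per sample was amplified into biotin-labelled cDNA. The authors deposited a log2 level for each transcript cluster on each array. Per the submitters' processing notes, the tools were RMA, Transcriptome Analysis Console and Affymetrix Expression Console, without versions, and no genome build is named. Values ran from 1.88 to 19.93, and 1268 of 65528 clusters exceeded 16 on at least 1 array, so an unstated rescaling lies behind them. The series design text names another mouse array than the one whose annotation the row identifiers match.

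Symbols came from that annotation, updated through Entrez identifiers, and clusters with several symbols (2118) were not attributed. A cluster was tested when 3 or more of its 6 values reached the array medians, which all 39 measured members did, and the brightest cluster stood for a gene. Keap1_KO and WT were compared over 16825 genes with limma 3.58.1 in R 4.3.3 (lmFit and eBayes, two-sided, Benjamini-Hochberg, threshold 0.05), with an exact two-sided permutation test beside it, whose smallest p is 0.1. The script was tested on simulated data with planted changes. Calls were required only at a simulated SD of 0.1, below the median SD within a genotype of 0.32 over all genes. That test does not show how many true differences would be called in these data. No read depth applies to arrays, and the number of arrays limits the precision. Members and lists were chosen with earlier results of these data known, so no list was tested as a set. All 40 members were described. From each further pathway list, the 2 highest and 2 lowest differences could be named, beside Foxp3, Il2ra, Cd8a, Ngp and Camp. Ppp3cc, Egr2, Cd8b1, Thy1, Bcl11b and Lef1 were named after their values were seen. Alternatives covered filters, scaling, clusters per gene, variance estimate, array weights, a neutrophil covariate and leaving out each array.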

Additional observations from a re-analysis of the deposited data

How the results depend on the processing

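Of 14 alternatives, 28 of 39 members kept their sign in each, and 25 members higher in Keap1_KO became 22 to 28. The count of genes called was 0 except with trend and robust eBayes (1), array weights (1880) and leave-one-out (0 to 575, the highest without Keap1_KO B). Members called were 8 with array weights (9.58% of genes passed as higher and 1.59% as lower). They were 0 to 3 with an array left out (3.31% of genes passed as higher without Keap1_KO B). Separated members were 9 to 24 with an array left out (15 without WT D, 24 without Keap1_KO B), against 9. Fewer arrays make separation easier: without Keap1_KO B, 31.6% of genes were separated higher and 18% lower, against 9.11% and 4.96%. Separated members were 6 with repeated quantile normalization and 10 with centred arrays. No share of all genes is at hand for the other separation counts, which are not read as results about the members. With array weights the medians were 0.39 for members, 0.44 for adaptors and -0.21 for effector enzymes. With neutrophil markers as covariate they were 0.036 for members, 0.18 for receptor chains and -0.033 for negative regulators. With an array left out, the median of effector enzymes ran from -0.11 to 0.19 and that of the wider list from -0.094 to 0.094. Centring the arrays moved the median of all genes from 0.061 to 0.17. The cause of these shifts was not tested.

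The sign changed at least once for 11 members, whose main differences ran from -0.16 to 0.46. With array weights Dgka was -0.024, Fyn -0.063, Nfatc2 -0.00051, Rasgrp1 -0.075 and Ptpn22 0.42. With neutrophil markers as covariate Nfatc2 was -0.0054, Nfatc3 0.024, Plcg1 0.019, Skap1 -0.094, Sla -0.037 and Sla2 -0.28. With centred arrays Nfatc3 was 0.022, Plcg1 0.025 and Ptpn22 0.10, and with repeated quantile normalization Ptpn22 was 0.00059. With an array left out, differences ran from -0.10 to 0.15 for Dgka, from -0.019 to 0.13 for Fyn, from -0.011 to 0.069 for Nfatc2, from -0.22 to 0.093 for Plcg1, from -0.30 to 0.065 for Ppp3ca, from -0.60 to 0.35 for Ptpn22 and from -0.083 to 0.85 for Sla2. No paired analysis was possible because the replicate letters of the genotypes share only D.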
